A study of Saccharomyces cerevisiae with 16 samples.

Results

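The small (40S) subunit of the cytosolic ribosome of Saccharomyces cerevisiae is built from proteins that are each encoded by 1 gene or by a pair of duplicated genes, the A and B copies. The 56 genes named RPS0A to RPS31 were taken by name from the 6717 genes of the count table. They were 8 single-copy genes and 24 pairs, which together encode 32 proteins, and they lay on 14 chromosomes. All 56 passed the filter on low counts, as did 5856 genes in all, and the lowest count of any member in any library was 137, for RPS27A (YKL156W).

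RNA was sequenced from strain S96 (MATa lys5), a laboratory yeast of the S288c background, in 2 forms. The petite form had been made from S96 with ethidium bromide and lacks mitochondrial DNA, so it cannot respire. The grande form, called normal in the labels, keeps that DNA. Each form was grown in YM, a minimal medium supplemented with lysine, or in YPD, a rich medium. Mid-log cultures were diluted and divided, and a part of each was incubated for 2.5 h with 0.055% (v:v) crude MCHM (4-methylcyclohexane methanol, an alcohol used to wash coal) while the other stayed untreated. The time is that of the labels, and the study's methods give a shorter exposure. The 8 groups were therefore petite in YPD with MCHM, petite in YPD untreated, petite in YM with MCHM, petite in YM untreated, and the same 4 conditions in grande yeast, with 2 libraries each. The petite is a single strain, so its nuclear background after ethidium bromide cannot be told apart from the loss of mitochondrial DNA. Genes of the mitochondrial genome had 0 counts in all petite libraries and 0 to 12 counts in the grande libraries. The 16 libraries held 2015485 to 5694566 counts (median 3662481).

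Ribosomal protein genes are among the most actively transcribed genes of growing yeast, and their transcription follows nutrient supply. Rap1 binds the promoters of most of them and holds Fhl1, to which the coactivator Ifh1 binds when the kinase complex TORC1 is active. Sfp1 acts on the same genes, and a smaller number use Abf1 in place of Rap1. The 40S proteins form a head and a body. Rps2, Rps3 and Rps9 line the channel where mRNA enters, Rps14, Rps26 and Rps28 lie near its exit, and Rps23 and Rps15 reach the decoding centre. The 2 copies of a pair code for proteins that are identical or nearly so, and many copies differ in introns and in promoters.

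The copies of a pair can be told apart in the counts only through the bases in which they differ. Coding identity between A and B copies ran from 84.3% to 99.2% (median 92.8%), and the proteins were identical in 9 pairs. The longest stretch that both copies share had a median of 60 bases, the shortest such value being 23 bases. It was 311 bases in RPS6, whose copies differ at 6 coding bases. In such pairs the split of reads between A and B is uncertain, because the treatment of reads that fit both copies was not given in the sources used here. The windows of 60 coding bases below are shown for RPS6, the pair with the fewest differences among those shown, and for RPS26 and RPS29, pairs whose copies had unlike fold changes. They come from the R64 genome, are written along the coding strand, and carry in capitals the bases in which the copies differ.
RPS6A (YPL090C), chrXVI:377861-377920, minus strand: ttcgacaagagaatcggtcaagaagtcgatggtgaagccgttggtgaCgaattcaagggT
RPS6B (YBR181C), chrII:592282-592341, minus strand: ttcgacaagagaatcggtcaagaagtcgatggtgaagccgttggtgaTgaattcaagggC
RPS26A (YGL189C), chrVII:148244-148303, minus strand: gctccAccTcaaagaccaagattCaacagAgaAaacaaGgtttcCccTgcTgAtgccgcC
RPS26B (YER131W), chrV:424237-424296, plus strand: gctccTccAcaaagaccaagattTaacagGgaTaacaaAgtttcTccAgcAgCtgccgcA
RPS29A (YLR388W), chrXII:898666-898725, plus strand: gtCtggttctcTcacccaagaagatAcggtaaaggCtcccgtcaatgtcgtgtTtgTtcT
RPS29B (YDL061C), chrIV:340724-340783, minus strand: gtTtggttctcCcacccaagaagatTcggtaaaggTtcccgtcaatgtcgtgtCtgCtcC
The RPS6 copies differed at 2 of these 60 bases, the RPS26 copies at 11 and the RPS29 copies at 7. Over the whole coding sequence the copies differed at 6 of 711 bases in RPS6, 28 of 360 in RPS26 and 14 of 171 in RPS29. RPS26 and RPS29 thus offer more bases by which a read can be assigned than RPS6.

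The 500 bases upstream of each start codon were searched on both strands for the Rap1 motif ACCCNNACA. It was found in 18 of 56 members (32.1%) and in 328 of 6000 genes overall (5.5%), with 22 matches whose median position was -341 counted from the start codon. The Fhl1 motif GACGCA was found in 6 members (10.7%) against 656 of all genes (10.9%), and the Abf1 motif in 12 members (21.4%) against 1362 of all genes (22.7%). Sites are shown for 7 members whose results are described further on, with the Rap1 match in capitals. The sequences are from R64 and run along the strand of the gene.
RPS2 (YGL123W), chrVII:277219-277247, plus strand: tttaagctagACCCATACAcccgctctat
RPS13 (YDR064W), chrIV:579218-579246, plus strand: cataaagtagACCCAAACAtttttaaaaa
RPS10A (YOR293W), chrXV:866748-866776, plus strand: attctgggttTGTATGGGTgttacaccgg
RPS16A (YMR143W), chrXIII:551611-551639, plus strand: acatattggcACCCATACAttataaaatc
RPS16B (YDL083C), chrIV:308133-308161, minus strand: cagaaaaaacACCCATACAtgttgaaaaa
RPS19A (YOL121C), chrXV:93078-93106, minus strand: cgttcgttcaACCCGTACAtttatataaa
RPS23B (YPR132W), chrXVI:794647-794675, plus strand: atctccaaacACCCATACAtatttatatt
In RPS10A the match lies on the opposite strand. A match is a description of letters in this window, and 38 members had none, RPS12, RPS20, RPS26B and RPS31 among them.

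Small subunit genes took the smallest share of all counts in petite yeast in YPD with MCHM, where the 2 libraries gave 2.87% and 2.63% (mean 2.75 ± 0.167%, SD, n = 2). Untreated petite yeast in YPD gave 8.50% and 7.19%, well above. Grande yeast in YPD gave 6.63% and 5.58% with MCHM, against 8.63% and 8.59% untreated. In YM, petite yeast gave 2.94% and 3.11% with MCHM, against 3.64% and 3.51% untreated. Grande yeast in YM gave 4.17% and 5.38% with MCHM, against 6.02% and 6.33% untreated. The MCHM libraries lay below the untreated ones in all 4 strain and medium combinations without overlap, and the gap was widest in petite yeast in YPD. Counts are relative to the library total, so a member's share shows its part of the mRNA pool, and a change of total mRNA per cell or in the mix of cells cannot be told apart from it.

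**Figure D1:**
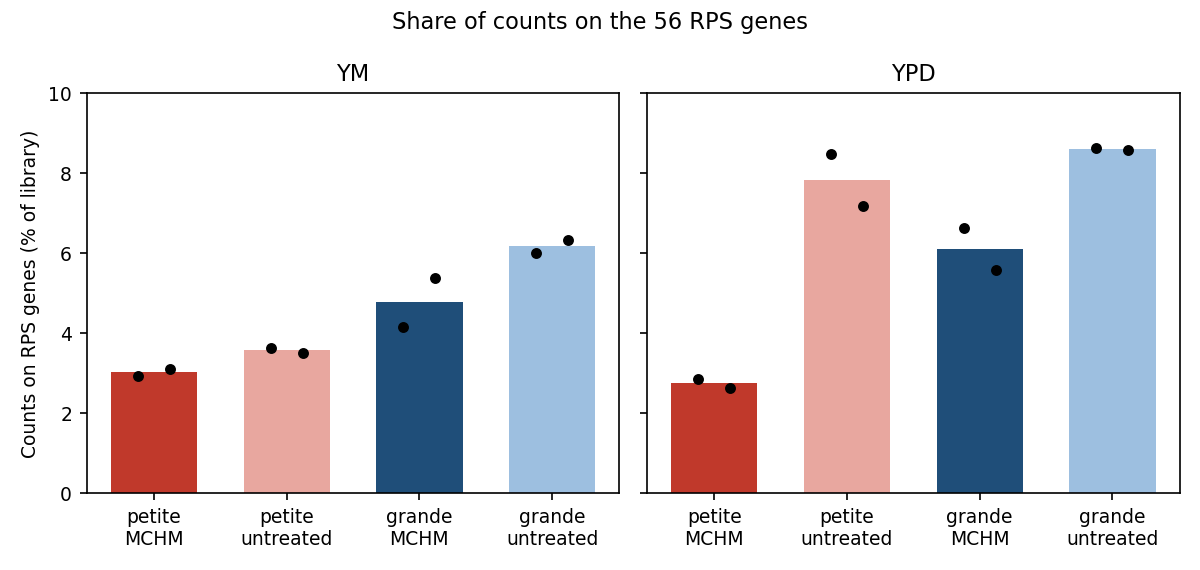
Share of all counts (%) held by the 56 small subunit (RPS) genes, with YM in the left panel and YPD in the right. Each bar is the mean of a group and each point is a library; in YPD the petite libraries with MCHM lie lowest, at 2.87% and 2.63%, and the untreated grande libraries highest, at 8.63% and 8.59%.

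The proteins enter the subunit in equal numbers, but the levels of their mRNAs were spread widely. In untreated grande yeast in YPD, levels per kilobase of coding sequence ran from 234.7 CPM per kb (CPM, the read count scaled to library size, divided by kilobases) for RPS9A (YPL081W) to 8535 CPM per kb for RPS29B (YDL061C), a 36.4-fold span. RPS14A (YCR031C) at 8349 CPM per kb and RPS31 (YLR167W) at 8343 CPM per kb came next to the top. RPS27A at 521.3 and RPS14B (YJL191W) at 658.7 CPM per kb were next to the bottom, so each of the 3 lowest was the minor copy of a pair. RPS29B had the highest level per kb in 7 of the 8 groups, and RPS14A in the other, grande yeast in YM with MCHM (5732 CPM per kb). The median member stood at 869 CPM per kb in petite yeast in YPD with MCHM, against 2638 CPM per kb in untreated petite yeast in YPD. It stood at 926.2 and 1157 CPM per kb in petite yeast in YM with and without MCHM. The grande medians were 2252 and 2936 CPM per kb in YPD with and without MCHM, and 1842 and 2390 CPM per kb in YM with and without MCHM.

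In petite yeast in YPD, MCHM was accompanied by lower levels of nearly the whole set. With a call defined as an adjusted p under 0.05 and a change of at least 2-fold (edgeR's quasi-likelihood test, Benjamini-Hochberg adjustment over all genes), 50 of 56 members fell and 0 rose. Of all genes tested, 5.24% fell and 4.08% rose in this comparison. The members' log2 fold changes ran from -2.33 to -0.29 with a median of -1.52, which is 2.87-fold lower, while the median of all genes was -0.03. Both MCHM libraries lay below both untreated libraries in 54 of 56 members, a state found in 28.9% of all genes. The count depended on single libraries. Leaving out the MCHM library of culture 2 left 27 calls, leaving out that of culture 10 left 19, and the fit on these groups alone gave 22. The members' median stayed between -1.61 and -1.34 whichever library was left out.

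RPS26B (YER131W; chrV:423952-424311 in R64, plus strand, no intron), which encodes the zinc-binding Rps26 of the mRNA exit, had the largest fall. It had 141.3 and 141.6 CPM with MCHM, against 746.3 and 681.7 CPM untreated. The groups lay far apart and the replicates close together, and the fall was 5.05-fold (log2 fold change -2.33, SE 0.223, adjusted p = 0.00118). RPS20 (YHL015W; chrVIII:75412-75777, plus strand, no intron), whose protein is ubiquitylated by Hel2 on stalled ribosomes, had 753 and 444.5 CPM with MCHM, against 3047 and 1529 CPM untreated. Its replicates were spread widely in both groups, but the groups did not overlap (log2 fold change -1.93, SE 0.422, adjusted p = 0.0157). The call was lost without the untreated library of culture 2 (-1.35), without the MCHM library of culture 2 (-2.28) or 10 (-1.60) and in the fit on these groups alone (-1.93). RPS12 (YOR369C; chrXV:1028194-1028625, minus strand, no intron), a protein of the beak of the head, had 755.2 and 745.4 CPM with MCHM, against 2861 and 2700 CPM untreated. The pairs of replicates were close here, and the fall was 3.71-fold (log2 fold change -1.89, SE 0.269, adjusted p = 0.00224).

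**Figure D2:**
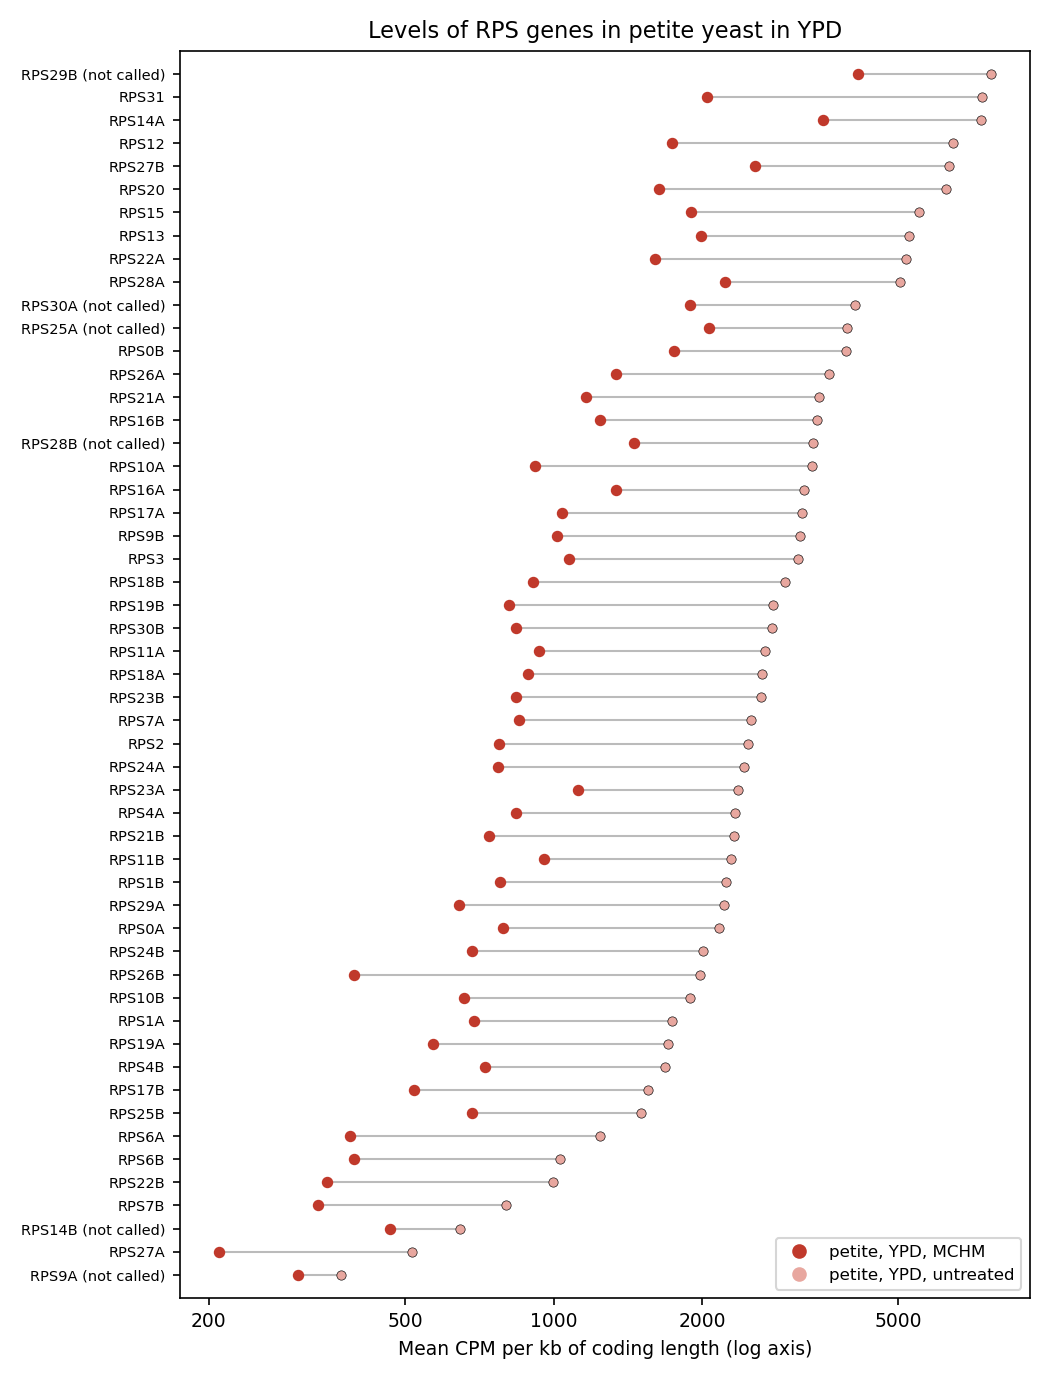
Mean level of 53 small subunit genes in petite yeast in YPD (CPM per kb of coding length, log axis; n = 2 libraries a group), with MCHM in dark red and untreated in light red, ordered by the untreated level. The MCHM point lies left of the untreated point for every gene shown, furthest for RPS26B (393 against 1983 CPM per kb), and the 6 genes without a call are marked.

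All 8 single-copy genes fell in petite yeast in YPD with MCHM, with a median log2 fold change of -1.61. They have no A or B partner to share reads with, although the ubiquitin part of RPS31 is also encoded by UBI4, RPL40A and RPL40B. RPS31, which is made as a fusion with ubiquitin, had 1007 and 871.4 CPM with MCHM, against 3584 and 3195 CPM untreated. RPS2 had 510.7 and 675.5 CPM with MCHM, against 1436 and 2349 CPM untreated. Both genes were clear of overlap, at log2 fold changes of -1.85 (SE 0.248, adjusted p = 0.00191) for RPS31 and -1.67 (SE 0.464, adjusted p = 0.0384) for RPS2. RPS3 (YNL178W), at the mRNA entry, had 899.3 and 651.9 CPM with MCHM, against 2286 and 2244 CPM untreated. RPS15 (YOL040C), of the head, had 987.3 and 643.7 CPM with MCHM, against 2498 and 2226 CPM untreated. In these genes, too, every MCHM library lay below every untreated one, with log2 fold changes of -1.55 for RPS3 and -1.53 for RPS15. RPS13 had 937.5 and 876.8 CPM with MCHM, against 2243 and 2541 CPM untreated (log2 fold change -1.40, SE 0.296, adjusted p = 0.0138).

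The 6 members without a call in this comparison were all copies of pairs. RPS9A (chrXVI:404950-406044, plus strand, 1 intron) was the least changed, with 190.8 and 168.7 CPM with MCHM, against 189.3 and 250.1 CPM untreated, so that the groups overlapped (log2 fold change -0.29, SE 0.334, adjusted p = 0.617). RPS14B, a gene that Rps14 protein represses through its own pre-mRNA, had 242.3 and 146.2 CPM with MCHM, against 340.1 and 198.6 CPM untreated. It overlapped as well (log2 fold change -0.47, SE 0.34, adjusted p = 0.402). RPS29B, RPS30A (YLR287C-A) and RPS28B (YLR264W) had log2 fold changes of -0.89, -1.11 and -1.21 with adjusted p = 0.163, 0.0842 and 0.0883. RPS25A (YGR027C) passed the adjusted p (0.0209) but not the fold, at -0.93.

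The falls ran across both parts of the subunit and across genes with and without introns. Of the genes for head proteins 19 of 22 fell (median log2 fold change -1.56), and of those for body proteins 31 of 34 (median -1.46). Of the 36 genes with an intron 33 fell (median -1.52), and of the 20 without 17 (median -1.53). Among the pairs, 21 of 24 A copies and 21 of 24 B copies fell, with medians of -1.46 and -1.52. No test was made between these subsets.

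In grande yeast in YPD, MCHM gave 0 calls among the 56 members, while 2.19% of all genes were called in either direction. The members' median log2 fold change was -0.36 (range -0.67 to 0.89), against -0.03 for all genes. Both MCHM libraries lay below both untreated ones in 30 members, a state found in 22.7% of all genes, and above them in 1. Only 3 members reached an unadjusted p under 0.05 (957 of all genes did), and DESeq2 also called 0. RPS26B had 565.5 and 480.5 CPM with MCHM, against 751.3 and 830.2 CPM untreated. RPS12 had 2287 and 2242 CPM with MCHM, against 2696 and 3560 CPM untreated. Both were lower in both MCHM libraries without passing the test. The median moved between -0.50 and -0.10 when single libraries were left out.

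In petite yeast in YM, MCHM gave 0 calls among the members against 0.546% of all genes, with a median of -0.30 (range -0.72 to 0.18). The MCHM libraries lay below the untreated ones without overlap in 28 members, against 23.5% of all genes, and 1 member reached an unadjusted p under 0.05 against 459 of all genes. RPS26B had 160.9 and 166.7 CPM with MCHM, against 248.4 and 241.9 CPM untreated. RPS12 had 1079 and 1075 CPM with MCHM, against 991.4 and 1337 CPM untreated, and overlapped. The untreated values of RPS26B in YM were nearer to those of MCHM-treated petite yeast in YPD than to the untreated ones in YPD.

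In grande yeast in YM, MCHM gave 0 calls among the members against 5.07% of all genes, with a median of -0.35 (range -0.88 to 0.77). Lower levels in both MCHM libraries were found in 32 members, against 25.9% of all genes, and 4 members reached an unadjusted p under 0.05 against 1305 of all genes. DESeq2 called 0 in both YM comparisons. RPS26B had 337.8 and 468.7 CPM with MCHM, against 429.3 and 495.8 CPM untreated, and overlapped. RPS20 had 1006 and 1368 CPM with MCHM, against 2196 and 1604 CPM untreated, and did not. Across the 4 MCHM comparisons 48 of 56 members had a negative log2 fold change in each, and 55 of 56 had their most negative one in petite yeast in YPD. The calls in petite yeast in YPD and their lack elsewhere do not show that the responses differ, so the differences were tested directly.

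The MCHM response of petite less that of grande yeast in YPD was negative in all 56 members, with a median of -1.11 (range -1.74 to -0.30). At the adjusted threshold 0 members were called, as were 0% of all genes, while 43 members reached an unadjusted p under 0.05 against 255 of all genes. DESeq2 called 20 members lower, where it called 48 of all genes lower and 7 higher. For RPS26B the difference was -1.74 (SE 0.303, adjusted p = 0.272 by edgeR). In YM the same difference between strains had a median of 0.06, with 0 members called against 0.0171% of all genes, and 1 member reached an unadjusted p under 0.05.

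Between media, the MCHM response in YM less that in YPD in petite yeast had a median of 1.18, and 2 members were called higher, against 0.461% of all genes in either direction. They were RPS26B at 1.75 (SE 0.303, adjusted p = 0.0315) and RPS19A at 1.52 (SE 0.29, adjusted p = 0.0484), by edgeR's quasi-likelihood test. RPS19A, whose protein eS19 lies in the head, had 239.1 and 255.4 CPM with MCHM, against 774.2 and 708.8 CPM untreated, in petite yeast in YPD. In petite yeast in YM it had 323.4 and 313.3 CPM with MCHM, against 332.4 and 332.4 CPM untreated. The treated and untreated libraries were thus far apart in YPD and close together in YM. RPS12 came close, at 1.78 (SE 0.371, adjusted p = 0.0585). Both calls were lost when any of the 8 libraries was left out. DESeq2 called 24 members higher, the replicate block by culture 6 and that by series of cultures 22. Of all genes, these fits called 72, 21 and 74 higher and 154, 87 and 149 lower. The main fit called 6 of all genes higher and 21 lower. In grande yeast the difference between media had a median of -0.03, with 0 members called and 0% of all genes.

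With MCHM in YPD, petite yeast had lower levels than grande yeast of 29 of 56 members, and 0 were higher, while 1.18% of all genes were lower and 0.342% higher. The median was -1.26 (range -1.89 to -0.33), and 54 members were lower in both petite libraries than in both grande ones, as were 23.1% of all genes. RPS26B (141.3 and 141.6 CPM in petite, against 565.5 and 480.5 CPM in grande) led with a log2 fold change of -1.89 (SE 0.22, adjusted p = 0.00538). RPS29A (YLR388W), a zinc-binding protein of the head, had 103.5 and 116.6 CPM in petite, against 374.7 and 324 CPM in grande. RPS10A, eS10 of the head, had 306.9 and 275.2 CPM in petite, against 1068 and 758.8 CPM in grande. Neither gene overlapped, at log2 fold changes of -1.67 (SE 0.246, adjusted p = 0.0125) and -1.65 (SE 0.292, adjusted p = 0.0172). The 29 calls held 16 of 22 head genes and 13 of 34 body genes. The medians of all head and all body genes were closer, at -1.36 and -1.23, and no test was made between them. Leaving out any 1 of the 4 libraries gave 0 calls at medians between -1.46 and -1.07, the replicate block by series of cultures gave 46 and the fit on these groups alone 12. Between the strains in YM, calls held 5 of 22 head and 8 of 34 body genes with MCHM. Untreated in YM, they held 7 and 13.

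Without MCHM in YPD the strains could not be separated. Of the members 0 were called, as were 0% of all genes, the median was -0.17 (range -0.33 to 0.66), and 0 members reached an unadjusted p under 0.05 against 152 of all genes. The untreated petite libraries lay below the grande ones without overlap in 14 members, against 10.3% of all genes. RPS26B had 746.3 and 681.7 CPM in petite, against 751.3 and 830.2 CPM in grande. RPS31 had 3584 and 3195 CPM in petite, against 3820 and 3840 CPM in grande. Both were a little lower in petite, by less than the test could call, and DESeq2 called 0 members too.

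In YM the strains differed with and without MCHM. Untreated, 20 of 56 members were lower in petite yeast and 0 higher, at a median of -0.95 (range -1.69 to -0.17) against 0.07 for all genes, of which 5.09% were lower and 5.57% higher. Both petite libraries lay below both grande ones in 55 members, against 26.2% of all genes. RPS22B (YLR367W; chrXII:856442-857317, plus strand) holds a cut site of the nuclease Rnt1 and overlaps the small nucleolar RNA gene SNR44. It had 105.2 and 91.25 CPM in petite, against 318.6 and 315.8 CPM in grande. Its partner RPS22A (YJL190C) had 745.9 and 662 CPM in petite, against 2162 and 2333 CPM in grande. The copies of uS8 fell alike, by 1.69 (SE 0.36, adjusted p = 0.0121) and 1.68 (SE 0.347, adjusted p = 0.0111) on the log2 scale. RPS14A had 1250 and 1113 CPM in petite, against 3199 and 3248 CPM in grande (log2 fold change -1.45, SE 0.32, adjusted p = 0.0135). RPS14B had 259.7 and 193.2 CPM in petite, against 274.8 and 246.3 CPM in grande, and was not called. Calls numbered 27 and 0 without the grande libraries of cultures 5 and 13, 3 and 6 without the petite libraries of cultures 6 and 14, and 0 in the fit on these groups alone. RPS22B, RPS22A and RPS14A lost their calls in that fit and in each of these omissions except that of culture 5. They numbered 11 on library size alone and 35 on TMM factors computed without ribosomal protein genes, while the medians over these single-library omissions lay between -1.13 and -0.94.

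With MCHM in YM, 13 members were lower in petite yeast and 0 higher, at a median of -0.93 (range -1.97 to -0.11), and 2.03% of all genes were lower and 1.69% higher. The petite libraries lay below the grande ones without overlap in 53 members, against 28.3% of all genes. RPS22B again led, with 84.81 and 73.58 CPM in petite, against 196.5 and 422.7 CPM in grande (log2 fold change -1.97, SE 0.363, adjusted p = 0.0169). RPS26B had 160.9 and 166.7 CPM in petite, against 337.8 and 468.7 CPM in grande (log2 fold change -1.30, SE 0.216, adjusted p = 0.0118). RPS29A had 126.7 and 124.7 CPM in petite, against 251 and 350 CPM in grande (log2 fold change -1.26, SE 0.243, adjusted p = 0.0201). In these genes the petite replicates were close together and the grande MCHM replicates apart. Without the grande library of culture 13 the log2 fold changes were -1.29 for RPS22B, -1.02 for RPS26B and -0.98 for RPS29A, and all 3 calls were lost, as they were without either petite library and in the fit on these groups alone. Library size alone also ended the calls of RPS26B (-0.98) and RPS29A (-0.94). Leaving out the grande libraries of cultures 5 and 13 gave 4 and 0 calls, and leaving out the petite libraries of cultures 6 and 14 gave 1 and 0. The call count was 1 on library size alone, 21 with the replicate block by series and 0 in the fit on these groups alone. The untreated difference between strains in YM less that in YPD had a median of -0.84, with 0 members called against 0.529% of all genes. An unadjusted p under 0.05 was reached by 29 members and by 931 of all genes. DESeq2 called 1 member lower, where it called 99 of all genes lower and 101 higher.

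The medium alone also went with lower levels in untreated petite yeast. In YM, 38 of 56 members were lower than in YPD and 0 higher, at a median of -1.16 (range -2.00 to -0.25), while 6.22% of all genes were lower and 9% higher. Both YM libraries lay below both YPD libraries in 55 members, against 29.7% of all genes. RPS22B had 105.2 and 91.25 CPM in YM, against 482.6 and 301.2 CPM in YPD (log2 fold change -2.00, SE 0.363, adjusted p = 0.00335). RPS28B, which represses its own mRNA through the decapping factor Edc3, had 291 and 152.3 CPM in YM, against 816.9 and 552.5 CPM in YPD (log2 fold change -1.63, SE 0.432, adjusted p = 0.0216). RPS20 had 883.9 and 662.2 CPM in YM, against 3047 and 1529 CPM in YPD (log2 fold change -1.56, SE 0.417, adjusted p = 0.0219). In all 3 genes the media did not overlap although YPD replicates were uneven. RPS20 lost its call without either YM library or the YPD library of culture 2 (-0.99), RPS28B without the YM library of culture 14 (-1.23) or that YPD library (-1.32), and both in the fit on these groups alone. Of head genes 19 of 22 and of body genes 19 of 34 were called. Their medians were close, at -1.18 and -1.09, both near the 2-fold threshold. No test was made between head and body genes. Calls numbered 25 and 17 without the YM libraries of cultures 6 and 14, 20 without the YPD library of culture 2 and 9 in the fit on these groups alone.

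With MCHM the media were close in petite yeast. The median was 0.08 (range -0.78 to 0.52), 0 members were called against 5.14% of all genes, 12 members were higher in YM without overlap against 31.6% of all genes, and 1 reached an unadjusted p under 0.05 against 1343 of all genes. RPS31 had 1200 and 1225 CPM in YM, against 1007 and 871.4 CPM in YPD. Its values in these 4 libraries were far below the untreated petite libraries in YPD.

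In grande yeast the media gave 0 calls among the members with or without MCHM. With MCHM the median was -0.31 (range -0.76 to 0.28), 0.427% of all genes were called, and 12 members lay lower in YM without overlap against 22.1% of all genes. Untreated, the median was -0.28 (range -0.81 to 0.35), 2.6% of all genes were called, and 33 members lay lower in YM without overlap against 22.3% of all genes. Members at an unadjusted p under 0.05 numbered 0 with MCHM and 6 untreated, against 777 and 1063 of all genes, and DESeq2 called 0 in both. RPS28B had 549.2 and 576.6 CPM in untreated YM, against 796.4 and 921.8 CPM in untreated YPD, without a call. The 12 comparisons share libraries, so their values stand side by side and are not independent of each other.

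**Figure D3:**
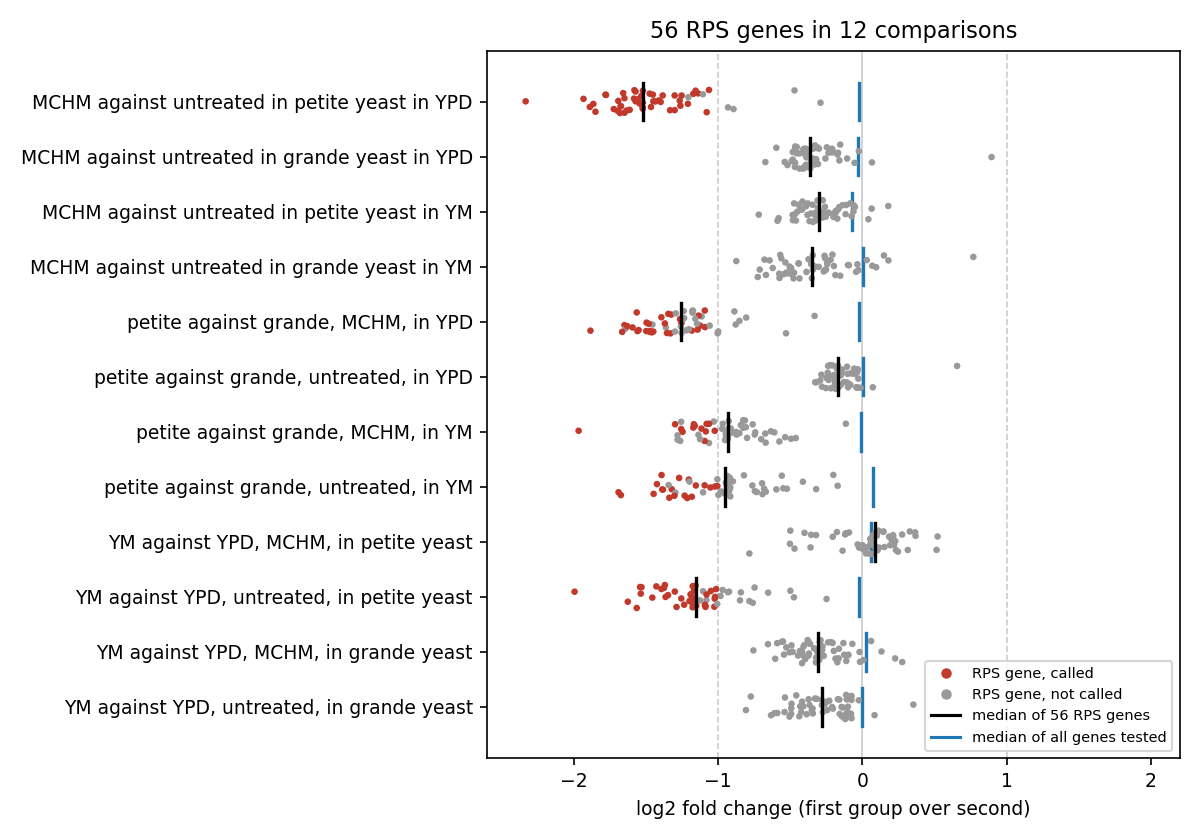
Log2 fold changes of the 56 small subunit genes in each of the 12 comparisons, where each point is a gene, red if called and grey if not, black lines are medians of the 56, blue lines medians of all genes tested and dashed lines a 2-fold change. The black lines lie furthest left for MCHM in petite yeast in YPD (-1.52), petite against grande yeast with MCHM in YPD (-1.26) and YM against YPD in untreated petite yeast (-1.16).

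Over the 12 comparisons, 8 members were called lower in each of the 5 comparisons that held any call. They were RPS9B (YBR189W), RPS16A, RPS16B, RPS19B (YNL302C), RPS21A (YKR057W), RPS22B, RPS23B and RPS29A. The share of all genes called lower in all 5 was not counted. In the single comparisons it ran from 1.18% to 6.22%. The list depends on single libraries. For petite against grande yeast with MCHM in YPD, leaving out any single library of these groups gave 0 calls. RPS9A, RPS14B, RPS29B and RPS30A were called in none. RPS16A and RPS16B, the copies of uS9, were both among the 8. For MCHM in petite yeast in YPD their log2 fold changes were -1.27 and -1.47. RPS16A had 661.8 and 495.7 CPM in petite yeast in YPD with MCHM, against 1336 and 1448 CPM untreated. RPS16B had 629.3 and 442.1 CPM there, against 1499 and 1462 CPM untreated. RPS23B, a copy of uS12 of the decoding centre, had 366.2 and 368.9 CPM with MCHM, against 1187 and 1119 CPM untreated.

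The A and B copies were next compared within each library, as the log2 ratio of their levels per kilobase. The A copy was the higher in every library in 11 of 24 pairs and the B copy in 5, and the order varied between libraries in 8. The copies differed at least 2-fold on average in 9 pairs. The most unequal were RPS14, with A 9.29-fold above B on average (mean log2 ratio 3.21), and RPS27, with B above A (mean log2 ratio -3.40). RPS14A had 88.3% and 88.2% of the pair's level in petite yeast in YPD with MCHM and 92.1% and 93.3% in untreated grande yeast in YPD. Its share was lowest in petite yeast in YM, at 85.6% and 84.1% with MCHM and 82.9% and 85.3% untreated. The range of the group means of the ratio was under 1 on the log2 scale in 20 pairs, with a median of 0.57 over all pairs, where the median SD between replicates was 0.185. RPS10 (range 0.31, SD 0.144) and RPS6 (range 0.33, SD 0.117) were steadiest, RPS6 being a pair whose reads can hardly be separated.

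RPS9, uS4 of the mRNA entry, was the pair whose balance moved most, over 2.31 on the log2 scale against an SD between replicates of 0.395. RPS9A supplied 21.2% and 25.4% of the pair's level in petite yeast in YPD with MCHM, against 8.95% and 12.1% in untreated petite yeast in YPD. In YPD-grown grande yeast it supplied 9.47% and 17.6% with MCHM, against 5.19% and 6.31% untreated. The MCHM libraries lay above the untreated ones in both. In YM its share was 16.1% and 21.7% in MCHM-treated grande yeast, against 9.7% and 9.19% untreated, and 13.8% and 22.3% in MCHM-treated petite yeast, against 18.8% and 18.9% untreated, where the groups overlapped. RPS9B had 702.2 and 491.6 CPM in petite yeast in YPD with MCHM, against 1905 and 1802 CPM untreated, and fell (log2 fold change -1.64) while RPS9A was not called. RPS9A was higher in both MCHM libraries of grande yeast, with 188.3 and 330.4 CPM in YPD, against 131.3 and 147.6 CPM untreated, and with 204.3 and 403 CPM in YM, against 185.9 and 170.4 CPM untreated. Neither change passed the test (log2 fold changes 0.89 and 0.77, adjusted p = 0.195 and 0.198).

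**Figure D4:**
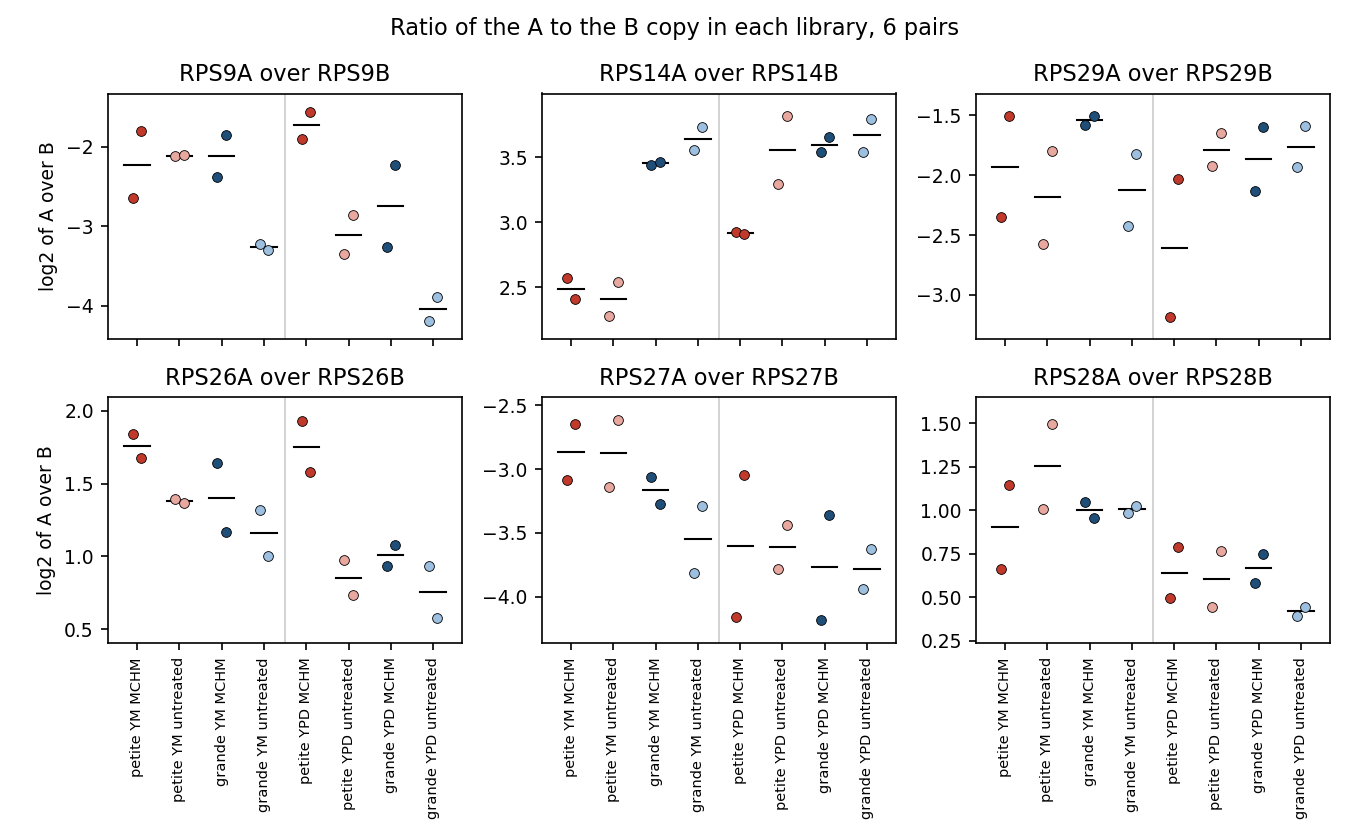
Log2 ratio of the A to the B copy (levels per kb) in each of the 16 libraries, for the 6 pairs whose group means ranged most. Each point is a library, each short line the mean of a group, and the vertical scale differs between panels; RPS9 spans the widest range of group means (2.31), and RPS14 stays above 0 and RPS27 below 0 in every library.

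RPS14, RPS29 and RPS26 were the other pairs whose group means ranged over at least 1 on the log2 scale. For RPS14 the range was 1.26 (SD between replicates 0.172). RPS14A was called lower in 3 of the 12 comparisons and RPS14B in 0. In untreated petite yeast the A copy changed by 1.12 more than the B copy in YM against YPD, and by 1.25 more in YM between the strains, both toward lower values. RPS26 ranged over 1.00 (SD 0.206). Its A copy supplied 79.2% and 74.9% of the level in petite yeast in YPD with MCHM, against 66.2% and 62.5% untreated. RPS26A had 537.5 and 423.6 CPM with MCHM, against 1463 and 1136 CPM untreated, a smaller fall (log2 fold change -1.43) than that of RPS26B. RPS29 ranged over 1.07 but with an SD between replicates of 0.468. RPS29A had 103.5 and 116.6 CPM in petite yeast in YPD with MCHM, against 392.2 and 365.1 CPM untreated, and fell. RPS29B had 940 and 478.1 CPM there, against 1491 and 1145 CPM untreated, without overlap or a call. RPS27 (range 0.92, SD 0.428) and RPS28 (range 0.83, SD 0.209) came next.

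The calls of the copies were next set side by side. For MCHM in petite yeast in YPD both copies were called in 18 pairs, A alone in 3 and B alone in 3, and the fold changes of the copies differed by a median of 0.24 and by 0.5 or more in 6 pairs. With MCHM in YPD, petite against grande yeast gave both copies in 9 pairs, A alone in 4 and B alone in 3. In YM the strains gave both copies in 1 pair, A alone in 5 and B alone in 5 with MCHM, and both in 4, A alone in 5 and B alone in 5 untreated. In untreated petite yeast, YM against YPD gave both in 12 pairs, A alone in 3 and B alone in 6. A call in a single copy does not show that the copies differ, and no test of the difference was made. The counts of A and B were then added. This removes the question of how counted reads were split, but not that of shared reads left uncounted. With summed counts 29 of 32 proteins fell in petite yeast in YPD with MCHM, where 5.24% of all genes fell in the main fit. The summed counts gave 17, 9, 14 and 24 lower proteins in the other comparisons that held calls. These were petite against grande yeast with MCHM in YPD, with MCHM in YM and untreated in YM, and YM against YPD in untreated petite yeast. In the main fit 1.18%, 2.03%, 5.09% and 6.22% of all genes were lower there. The summed counts thus gave lower proteins in the same 5 comparisons. They gave 0 lower proteins in the other comparisons.

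Genes of the large (60S) subunit, of which 80 were tested, gave values close to those of the small subunit. In petite yeast in YPD with MCHM 61 of them fell and 0 rose (median -1.42), led by RPL9A (log2 fold change -2.74, SE 0.292, adjusted p = 0.00118) and RPL38 (log2 fold change -1.99, SE 0.255, adjusted p = 0.00191). Of these genes 33 were lower with MCHM in YPD between the strains (median -1.18), 18 with MCHM in YM (median -0.91), 24 untreated in YM (median -0.90) and 41 in YM against YPD in untreated petite yeast (median -1.10). Of 12 regulators of ribosomal protein genes, 1 fell in petite yeast in YPD with MCHM, FHL1, at -1.18 (SE 0.34, adjusted p = 0.0446), and the median of the 12 was -0.33, where 5.24% of all genes fell. STB3, a repressor of ribosome synthesis genes, was higher in petite than in grande yeast with MCHM in YM (1.11, adjusted p = 0.0323; 1.69% of all genes were higher) and in YM than in YPD in untreated petite yeast (1.27, adjusted p = 0.00482; 9% of all genes).

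Of 14 helpers and partners of the small subunit, 7 fell in petite yeast in YPD with MCHM, with a median of -1.18, where 5.24% of all genes fell. They were YAR1, a chaperone of Rps3, the assembly factors LTV1, TSR1, NOB1 and DIM1, the ribosome-bound ASC1 and the ribosome preservation factor STM1. LTV1 fell by 1.498 (SE 0.273, adjusted p = 0.00699) and DIM1 by 1.35 (SE 0.248, adjusted p = 0.00729) on the log2 scale. In grande yeast in YPD with MCHM only NOB1 passed the test (log2 fold change -1.14, adjusted p = 0.0388), beside a median of -0.79, and 0.427% of all genes fell. ASC1, the RACK1 protein of the head, was lower in petite than in grande yeast in YM with MCHM (log2 fold change -2.21, SE 0.372, adjusted p = 0.0118) and untreated (-2.01, SE 0.369, adjusted p = 0.00716), and in YM than in YPD in untreated petite yeast (-1.95, SE 0.368, adjusted p = 0.00412).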

How the data were processed

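RNA was extracted with hot phenol from 8 yeast cultures, each divided into a treated and an untreated part (16 libraries, 8 groups of 2), and sequenced as unstranded paired-end TruSeq libraries on a MiSeq. The submitters' processing notes name CASAVA 1.7, TopHat2 2.0.12, DESeq2 1.8.1 and the R64 genome, and the authors counted reads per gene with Rsubread. The deposited counts are raw whole numbers. How reads fitting several genes were handled was not given in the sources used here. A deposited table of the authors' own comparisons (base means, fold changes and p-values) was not used.

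Columns give the group and a culture number. The lower and the higher number of each group are called the 2 series of cultures. Genes with low counts were removed (edgeR filterByExpr, minimum count 10, minimum total 15), which left 5856 of 6717. One edgeR 4.0.16 quasi-likelihood model (R 4.3.3) was fitted to all 16 libraries with TMM factors, with 1 coefficient per group, and p-values were adjusted by Benjamini-Hochberg over all genes tested. A gene was called at adjusted p under 0.05 and at least 2-fold. CPM values use TMM-scaled library sizes. The common biological coefficient of variation was 29.5%. TMM factors ran from 0.867 to 1.27. The p-values rest on a spread pooled over all 8 groups of 2 cultures, not on that of the compared groups alone. The main fit takes the treated and untreated libraries of a culture as independent.

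The 56 members and the comparison lists were chosen with earlier results of these data known. Genes were named by rule: the 8 single-copy members, the 3 called members with the largest fold change in each comparison and direction, the members not called for MCHM in petite yeast in YPD, the 6 pairs whose ratio ranged most and the 2 whose ratio ranged least, the pairs with the highest and lowest mean ratio, and the 2 largest called changes per direction in other lists. Other genes were named after their values were seen. The incubation time and the MCHM dose are those of the labels, and the study's methods give a shorter exposure. Some members are counted but not reported singly here. Since each culture was divided into treated and untreated parts, the MCHM comparisons are paired by culture. Deviations of same-culture libraries correlated at 0.48 (YPD) and 0.34 (YM) for petite and at 0.52 (YPD) and 0.34 (YM) for grande yeast. Libraries of the higher-numbered series correlated at a median of 0.45 over all pairs of groups (lowest 0.03). Same-culture libraries were thus not clearly more alike than others of that series. Alternatives were DESeq2 1.42.0, other scaling, no filter, replicate blocks, fits on the compared groups only, summed copies and leaving out each library. The script was tested on simulated data.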

Additional observations from a re-analysis of the deposited data

Results flagged for a closer look

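In petite yeast the MCHM response in YM less that in YPD differed from 0 in 2 small subunit genes by edgeR's quasi-likelihood test of the difference itself. It was 1.52 on the log2 scale (SE 0.29, adjusted p = 0.0484) for RPS19A and 1.75 (SE 0.303, adjusted p = 0.0315) for RPS26B. RPS26B had 160.9 and 166.7 CPM with MCHM, against 248.4 and 241.9 CPM untreated, in YM, and 141.3 and 141.6 CPM with MCHM, against 746.3 and 681.7 CPM untreated, in YPD. Leaving out any of the 8 libraries gave 0 calls.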

How the results depend on the processing

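No called value changed direction. The lowest count of any member was 137, and each group had 2 cultures. Counts of called genes also moved over all genes. With MCHM in YPD, 69 of all genes were lower in petite yeast in the main fit, 105 by DESeq2 and 118 with the series block. Counts of called members moved as follows. For MCHM in petite yeast in YPD (50), the fit on the compared groups gave 22 and leaving out single libraries 19 to 34, while the replicate block by culture and that by series gave 52 each. For petite against grande yeast with MCHM in YPD (29), DESeq2 gave 42, the series block 46, the compared groups 12 and single omissions 0 to 0. For the same with MCHM in YM (13), DESeq2 gave 20, library size alone 1, the series block 21, the compared groups 0 and single omissions 0 to 4. For the same untreated in YM (20), library size alone gave 11, TMM without ribosomal protein genes 35, the compared groups 0 and single omissions 0 to 27. For YM against YPD in untreated petite yeast (38), the compared groups gave 9 and single omissions 17 to 30. In untreated grande yeast (0), library size alone gave 1. For the difference of the MCHM response between strains in YPD (0), DESeq2 gave 20, and for the untreated strain difference between media (0), 1. For the difference between media in petite yeast (2), DESeq2 gave 24, library size alone 12, TMM without ribosomal protein genes 1, no filter 1, the culture block 6, the series block 22, the compared groups 0 and single omissions 0 to 0.

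Library size alone moved the median of all genes to 0.31 with MCHM in YM and to 0.33 untreated in YM between the strains, and the members' medians to -0.63 and -0.69. Relative to all genes the members' medians were -0.93 and -1.02, against -0.92 and -1.02 with TMM. For YM against YPD in untreated grande yeast the median was -0.51 on library size alone, -0.23 with TMM without ribosomal protein genes and without the filter, -0.30 on the compared groups and -0.25 with summed copies. Medians over single omissions ran from -0.50 to -0.10 for MCHM in grande yeast in YPD and from -0.64 to -0.23 in YM. Between the strains untreated they ran from -0.26 to -0.05 in YPD and from -1.13 to -0.94 in YM. For YM against YPD with MCHM in petite yeast, where the median was 0.08 without a call, they ran from -0.13 to 0.23. Between media in grande yeast they ran from -0.57 to -0.11 with MCHM and from -0.32 to -0.15 untreated. For the members named as largest in a comparison, 22 single omissions kept the call and 38 lost it, all 60 with the same sign, and the other alternatives kept 82 and lost 11. RPS26B and RPS12 for MCHM in petite yeast in YPD and RPS22B for YM against YPD in untreated petite yeast kept theirs throughout. The cause of these moves was not tested. The blocks changed no other call count by over 1.5 times.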

Other observations

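The 2 libraries of a group differed in the members in a way that partly recurred between groups. RPS2 was higher in the culture with the higher number in all 8 groups (mean difference 0.67 on the log2 scale), as was RPS25A (0.18). RPS26A was lower there in all 8 groups (-0.16). The members' median difference, higher minus lower number, was 0.43 in grande yeast in YM with MCHM, with 55 of 56 members positive, and -0.36 in petite yeast in YPD with MCHM, with 8 of 56 positive. The ratio of the A to the B copy was higher in the higher-numbered culture in 8 of 8 groups for RPS29 (mean 0.58), RPS21 (0.34), RPS18 (0.28) and RPS25 (0.24). It was so in 7 groups for RPS27 (mean 0.48), RPS9 (0.43), RPS28 (0.22) and RPS16 (0.10). In RPS23 (mean -0.20) and RPS4 (-0.14) it was so in 0 groups.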
